A study of Saccharomyces cerevisiae with 4 samples.

Results

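The VPS genes of budding yeast (Saccharomyces cerevisiae) were described in 4 RNA-seq libraries, 2 from control cells and 2 from manganese-adapted cells. They were taken by name, as every gene whose deposited symbol is VPS followed by digits, which gave 44 genes of 7126 features. This group of genes was chosen with earlier results of these data known. Every library came from strain CRY, a MATa strain labelled as carrying deletions of ade2, his3, leu2, trp1 and ura3. The cells grew in YPD (a rich medium of yeast extract, peptone and glucose) to the stationary stage. The control culture time was 18 h, in medium with about 0.0036 mM manganese by the submitters' estimate. Manganese-adapted cells had 120 h in 2.5 mM manganese sulfate. Culture time and manganese therefore differ together between the groups, and their effects cannot be told apart. The labels do not say whether the 2 samples of a group were separate cultures, so a p-value here speaks only of variation among these libraries and may reflect technical variation.

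As background, VPS genes were named for mutants that secrete vacuolar hydrolases instead of delivering them to the vacuole, the lysosome of yeast. Many encode subunits of a few machines. ESCRT complexes sort ubiquitin-marked membrane proteins into vesicles inside the endosome for degradation, retromer returns sorting receptors from the endosome to the Golgi, CORVET and HOPS tether membranes for fusion at the endosome and the vacuole, and GARP tethers vesicles that come back to the Golgi. In yeast the endosomal route also carries the manganese transporters Smf1 and Smf2 to the vacuole when manganese is plentiful.

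The libraries held 12307870 to 14184276 reads, and 40 of the 44 VPS genes had 393 to 4670 reads in each library. The table lists reads for all 6 a-cell genes examined, with a summed level of 263 to 289 CPM (reads of a gene scaled to a common library total) in control and 270 to 276 CPM in manganese-adapted libraries. The 4 alpha-cell genes summed to 66.7 to 69.5 and 138 to 149 CPM, none of them at 0. Both sums hold genes that went opposite ways. Among the alpha-cell genes STE3, SAG1 and MF(ALPHA)1 were higher and MF(ALPHA)2 lower. Among the a-cell genes BAR1 and STE6 were higher and STE2, MFA1 and MFA2 lower. MFA1 and MF(ALPHA)2 did not pass in DESeq2 (adjusted p 0.116 and 0.0629). MFA1, MF(ALPHA)2, MFA2 and STE6 did not pass after the correction for coding length described below. The part of these differences in the VPS results was not tested. The 5 auxotrophic genes that the labels give as deleted summed to 1031 to 1041 and 1064 to 1194 CPM, so reads were counted for each of them. In bulk RNA a change in the number of cells of one kind and a change in RNA per cell cannot be told apart. Each value is relative to the adjusted total of its own library.

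The VPS genes moved in both directions and mostly by small amounts. Of 43 that could be tested, 10 rose, 13 fell and 20 did not pass (limma on log2(CPM + 1), Benjamini-Hochberg adjusted p at 0.05 over 6296 features). That is 53.5% of the tested VPS genes, beside 68.5% of all features tested, with 23.3% of VPS genes higher beside 33.6% and 30.2% lower beside 34.9%. The median log2 fold change, manganese-adapted minus control, was -0.03 over the VPS genes and -0.01 over all features. The median size of the change, whatever its sign, was 0.29 beside 0.43. Past the test and at least 2-fold were 2 VPS genes, VPS36 and VPS69, beside 15.5% of all features. The groups did not overlap for 31 of the 43, beside 85.7% of features, and for all 23 that passed. With 2 libraries a group, a lack of overlap adds little to a call that passed. Of the 44 genes, 22 had in the authors' deposited table a false discovery rate under 0.05, beside 59.2% of all features, and these 22 were among the 23 found here. VPS35, the remaining one, stands at 0.0668 in the authors' deposited table.

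**Figure D1:**
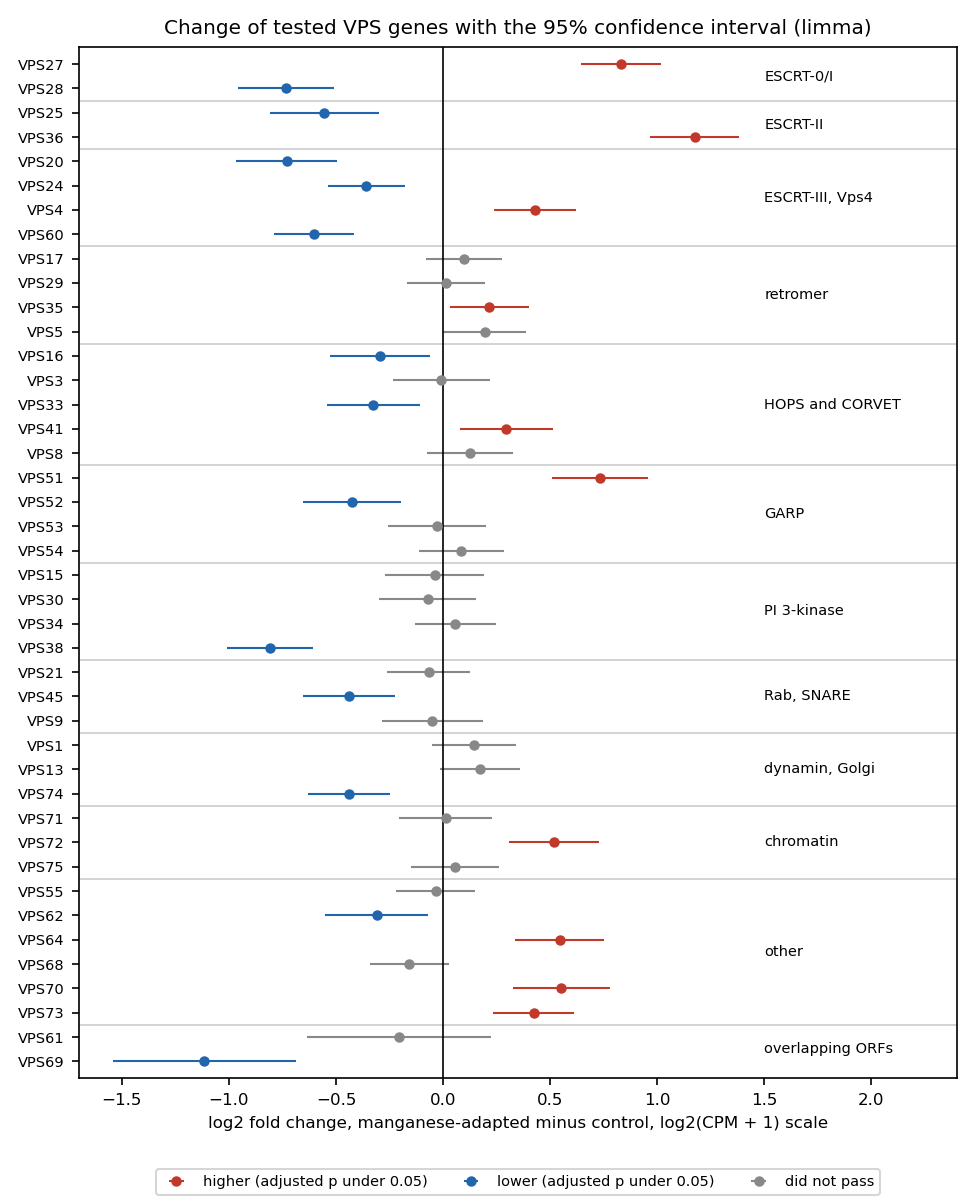
Log2 fold change of tested VPS genes (x axis, difference of adapted and control means of log2(CPM + 1)), grouped by complex. Points are limma estimates, lines their 95% confidence intervals, and colours the outcome of the test at an adjusted p of 0.05; VPS36 lies farthest to the right and VPS69 farthest to the left, and most retromer and phosphatidylinositol 3-kinase genes lie near 0.

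In the ESCRT pathway all 8 VPS-named genes passed the test, 3 higher and 5 lower, beside 68.5% of all features past it, 33.6% higher and 34.9% lower. VPS25 and VPS24, both lower, did not pass once the change was corrected for coding length, as described for each gene. VPS36 and VPS27 rose most, and VPS28 and VPS20 fell most. ESCRT-0 and ESCRT-II thus held genes that rose beside genes of ESCRT-I, ESCRT-II and ESCRT-III that fell.

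VPS27, the ESCRT-0 subunit that binds ubiquitinated cargo on the endosome, had 117 and 109 CPM in the control libraries and 205 and 198 CPM in the manganese-adapted ones. Both adapted libraries were high and the groups did not overlap. The log2 fold change was 0.83 ± 0.08 (standard error, SE; limma adjusted p 9.8e-06). Its ESCRT-0 partner HSE1 had 94.4 ± 0.10 and 87.6 ± 3.08 CPM (SD, n = 2 per group) and did not pass (log2 fold change -0.11). VPS28, a core subunit of ESCRT-I, went from 72.3 and 67.1 CPM to 38.7 and 44.3 CPM. The adapted libraries were both low, with a log2 fold change of -0.74 ± 0.10 (SE; limma adjusted p 8.52e-05).

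The other 3 subunits of ESCRT-I carry other names and fell as well. MVB12, the smallest of them, fell from 98.2 ± 6.90 to 37.2 ± 3.09 CPM (SD, n = 2; log2 fold change -1.38). SRN2 fell by 0.72 on the log2 scale and STP22, which holds the ubiquitin-binding domain of the complex, by 0.36. STP22 failed on leaving out manganese-adapted replicate 2 (limma adjusted p 0.109). Across all genes the change moved with coding length, and a correction subtracted that trend from each gene. A gene called higher or lower after correction is so relative to genes of like length, not to its own control level. The corrected p-values leave out the error of the trend. All 4 ESCRT-I genes were also lower after correction for coding length, with VPS28 at -0.49, SRN2 at -0.41, MVB12 at -0.81 and STP22 at -0.36. Of all features tested, 34.9% were lower, and 34.1% of genes with a coding length were lower after the correction.

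ESCRT-II is built of Vps36, Vps25 and Snf8, and its genes did not move together. VPS36, whose product binds the endosomal lipid phosphatidylinositol 3-phosphate, had 30.6 and 29.5 CPM in control and 70.7 and 67.7 CPM in adapted libraries. It was the largest rise among the VPS genes, with a log2 fold change of 1.18 ± 0.09 (SE; limma adjusted p 2.07e-06) and a CPM ratio of 2.30. VPS25, the subunit that binds Vps20 of ESCRT-III, had 42.5 and 49.8 CPM in control and 29.1 and 33.1 CPM in adapted libraries. It fell by 0.56 on the log2 scale (SE 0.12; limma adjusted p 0.00141). After correction for coding length VPS25 no longer passed (-0.21, adjusted p 0.107). SNF8 had 62.9 ± 1.20 and 57.4 ± 0.39 CPM and did not pass.

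The windows of 250 bases before the start codon are shown for these ESCRT genes because they changed in opposite directions within neighbouring steps of one pathway. They were read from the R64 genome in the direction of each gene, 5′ to 3′. Capitals mark the motifs AGGGG (the stress element of Msn2 and Msn4), GAGGC (part of the Crz1 element) and TATAAA, on either strand. The windows are chrXII:954760-955009 (plus strand) for VPS36, chrXIV:636736-636985 (plus) for VPS27, chrXVI:427677-427926 (plus) for VPS28 and chrX:619766-620015 (minus) for VPS25.
VPS36: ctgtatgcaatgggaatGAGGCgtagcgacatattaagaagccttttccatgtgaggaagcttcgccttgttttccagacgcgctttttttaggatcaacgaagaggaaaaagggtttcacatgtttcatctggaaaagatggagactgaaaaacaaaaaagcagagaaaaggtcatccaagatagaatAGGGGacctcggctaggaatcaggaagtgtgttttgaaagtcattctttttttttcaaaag
VPS27: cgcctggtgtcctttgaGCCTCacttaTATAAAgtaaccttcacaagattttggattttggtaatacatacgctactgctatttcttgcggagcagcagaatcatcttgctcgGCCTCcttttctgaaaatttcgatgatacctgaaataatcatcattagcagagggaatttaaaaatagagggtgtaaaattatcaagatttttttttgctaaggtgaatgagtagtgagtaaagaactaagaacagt
VPS28: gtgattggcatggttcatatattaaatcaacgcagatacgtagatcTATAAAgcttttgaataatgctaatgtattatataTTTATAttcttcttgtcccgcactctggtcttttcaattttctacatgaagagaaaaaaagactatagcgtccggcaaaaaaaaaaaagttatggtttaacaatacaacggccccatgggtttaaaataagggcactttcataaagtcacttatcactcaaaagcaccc
VPS25: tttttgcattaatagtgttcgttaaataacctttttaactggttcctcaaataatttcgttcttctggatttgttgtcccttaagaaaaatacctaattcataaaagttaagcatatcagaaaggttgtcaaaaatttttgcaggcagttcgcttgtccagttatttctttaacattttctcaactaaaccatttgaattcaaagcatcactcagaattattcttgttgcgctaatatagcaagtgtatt

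VPS36 holds 1 AGGGG, 61 bases before the start codon, and 1 GAGGC, while VPS27 holds 2 GAGGC and 1 TATAAA. VPS28 holds 2 TATAAA, and VPS25 holds none of these motifs in this window. Among the VPS genes with a window, AGGGG stood before 4 of the 10 that rose, 1 of the 12 that fell and 4 of the 18 that did not pass, beside 18.8% of 6001 protein-coding genes. GAGGC stood before 4 of 10, 2 of 12 and 1 of 18, beside 18.4% of all genes. TATAAA stood before 4 of 10, 6 of 12 and 10 of 18, beside 43.4%. CACGTG, the letters bound by Pho4 and Cbf1, stood before 0 of 41, beside 2.73%. These are matches of short letters and were not tested.

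ESCRT-III proteins polymerise on the membrane, and the ATPase Vps4 takes the polymer apart. VPS20, which starts the polymer, had 76.3 and 64.2 CPM in control and 40.3 and 43.3 CPM in adapted libraries, a fall of 0.73 on the log2 scale (SE 0.11; limma adjusted p 0.000131). VPS60, a late-acting subunit, had 142 and 155 CPM in control and 96.7 and 98.1 CPM in adapted libraries (log2 fold change -0.60 ± 0.08 SE; limma adjusted p 9.58e-05). Both were low in the 2 adapted libraries with no overlap. VPS24, a capping subunit, fell from 135 ± 0.26 to 105 ± 2.14 CPM (SD, n = 2; log2 fold change -0.36). VPS4 went the other way, from 208 and 226 CPM to 297 and 288 CPM (log2 fold change 0.43 ± 0.09 SE; limma adjusted p 0.00113). After correction for coding length VPS24 did not pass (-0.07, adjusted p 0.472), VPS20 was at -0.43, VPS60 at -0.33 and VPS4 at 0.37, and these 3 passed.

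Of the 8 ESCRT-III partners 2 rose, 2 fell, 3 did not pass and 1 could not be tested. Of all features tested, 33.6% were higher and 34.9% lower. DOA4, the deubiquitinase that recovers ubiquitin before cargo is enclosed, rose from 82.0 ± 5.52 to 139 ± 7.21 CPM (SD, n = 2; log2 fold change 0.75). VTA1, an activator of Vps4, rose by 0.36, but failed on leaving out manganese-adapted replicate 1 (limma adjusted p 0.0533). BRO1, which recruits Doa4, fell by 0.37 and CHM7, an ESCRT protein of the nuclear envelope, by 0.44. SNF7, the main polymer subunit, had 235 ± 0.06 and 233 ± 5.86 CPM and did not pass, but was called higher after correction for coding length (0.24, limma adjusted p 0.0247). DID2 was listed at 0 reads in every library. It is known to be overlapped by the reading frame OPI8, which had 24.1 ± 1.31 and 14.6 ± 1.62 CPM, and the level of DID2 is uncertain.

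**Figure D2:**
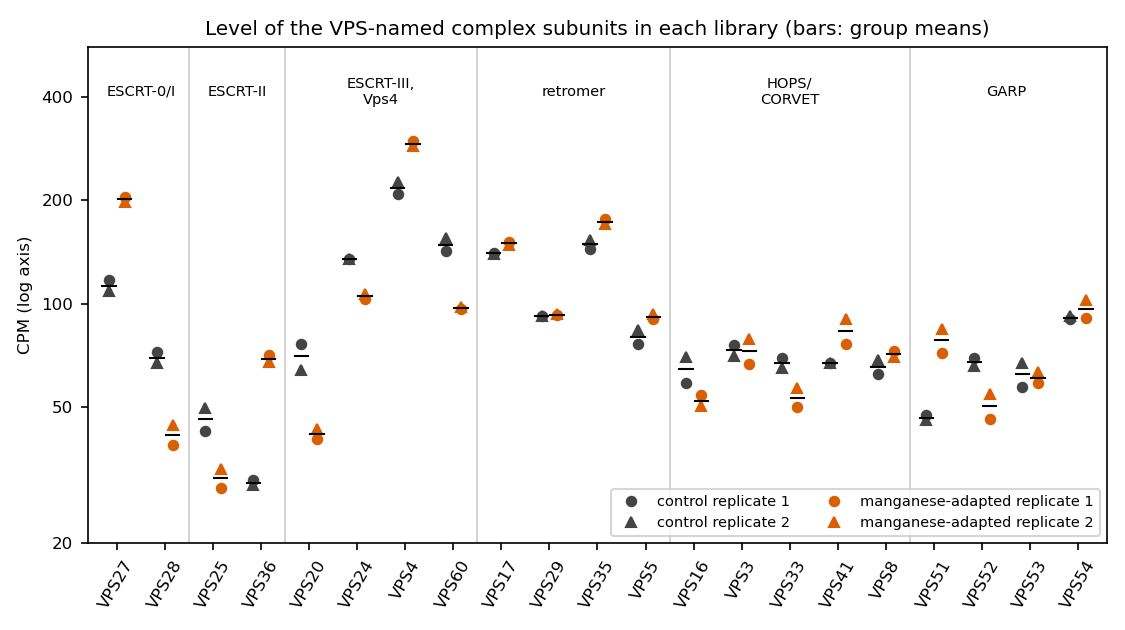
CPM (y axis, log scale) of the 21 VPS-named subunits of ESCRT, retromer, HOPS and CORVET, and GARP in each of the 4 libraries. Points are single libraries and short bars group means; the adapted libraries lie clear above the controls for VPS27, VPS36, VPS4 and VPS51 and clear below them for VPS28, VPS20 and VPS60, while retromer genes lie close together.

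The VPS-named retromer genes changed little. VPS35, the cargo-binding core, had 145 and 154 CPM in control and 177 and 170 CPM in adapted libraries and rose by 0.22 (SE 0.08; limma adjusted p 0.0376). It failed on leaving out control replicate 1 (adjusted p 0.123), manganese-adapted replicate 1 (0.18) or manganese-adapted replicate 2 (0.105), in DESeq2 (0.0687), and after correction for coding length (-0.10, adjusted p 0.321). VPS29, the other VPS-named core subunit, had 92.1 ± 0.06 and 92.9 ± 0.54 CPM, with a 95% confidence interval of -0.17 to 0.20 for the log2 fold change. The membrane-bending sorting nexins VPS5 (0.19, interval 0.00 to 0.39, limma adjusted p 0.07) and VPS17 (0.10, interval -0.08 to 0.27) did not pass. VPS5 overlaps VAM10 over 345 bp on the opposite strand, and VAM10 was listed at 0 reads in each library.

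Among the retromer partners PEP8, the third core subunit, fell by 0.20 (limma adjusted p 0.0439), a call that failed under 9 alternatives, among them each sample left out. SNX3, an adaptor for retromer cargo, fell from 85.3 ± 8.64 to 48.1 ± 1.19 CPM (SD, n = 2; log2 fold change -0.81, and -0.37 after correction for coding length). PEP1, the receptor of carboxypeptidase Y that retromer recycles, rose by 0.33. PEP1 failed on leaving out manganese-adapted replicate 1 (adjusted p 0.0785) or manganese-adapted replicate 2 (0.0727) and after correction for coding length (-0.03, adjusted p 0.803).

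HOPS and CORVET share a core of Vps16, Vps33, Pep5 and Pep3. VPS16 had 58.8 and 69.9 CPM in control and 54.1 and 50.2 CPM in adapted libraries and fell by 0.29 (limma adjusted p 0.0295). VPS33, which helps SNARE proteins assemble, had 69.2 and 64.8 CPM and then 49.9 and 56.6 CPM and fell by 0.33 (limma adjusted p 0.0123). PEP3 fell by 0.51, and PEP5 had 33.1 ± 1.03 and 35.7 ± 1.30 CPM and did not pass. VPS16 failed on leaving out control replicate 2 (adjusted p 0.204), manganese-adapted replicate 1 (0.0918) or manganese-adapted replicate 2 (0.203) and in DESeq2 (0.059), and VPS33 on leaving out manganese-adapted replicate 1 (0.129). After correction for coding length VPS16, VPS33 and PEP3 were lower by more, at -0.58, -0.58 and -0.83.

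The subunits that set HOPS apart were higher. VPS41 had 67.4 and 67.3 CPM in control and 76.3 and 90.001 CPM in adapted libraries and rose by 0.30 (limma adjusted p 0.021). It failed on leaving out manganese-adapted replicate 2 (adjusted p 0.204) and after correction for coding length (-0.03, adjusted p 0.822). VAM6, the other HOPS subunit, rose from 38.0 ± 4.12 to 69.9 ± 0.29 CPM (SD, n = 2; log2 fold change 0.87, and 0.54 after correction for coding length). YPT7, the vacuolar Rab GTPase that HOPS binds, fell from 216 ± 0.19 to 97.2 ± 0.29 CPM (log2 fold change -1.15). The CORVET subunits VPS3 (73.1 ± 4.14 and 72.9 ± 8.58 CPM) and VPS8 (65.4 ± 4.14 and 71.4 ± 1.85 CPM) did not pass. Their 95% confidence intervals ran from -0.24 to 0.22 and from -0.08 to 0.33, and after correction for coding length both were called lower, at -0.33 and -0.22.

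GARP is a complex of Vps51, Vps52, Vps53 and Vps54. Of its genes 1 rose and 1 fell, beside 33.6% of all features higher and 34.9% lower. VPS51, the smallest subunit, which binds the Golgi SNARE Tlg1, had 47.4 and 45.7 CPM in control and 71.9 and 84.4 CPM in adapted libraries. It rose by 0.73 (SE 0.10; limma adjusted p 9.12e-05), and by 1.17 after correction for coding length. VPS52 had 69.6 and 65.9 CPM and then 46.2 and 54.5 CPM and fell by 0.42 (limma adjusted p 0.00378), but failed on leaving out manganese-adapted replicate 1 (0.0652). VPS53 (62.2 ± 7.10 and 60.9 ± 3.14 CPM) and VPS54 (91.0 ± 1.30 and 96.7 ± 8.32 CPM) overlapped between groups and did not pass. After correction for coding length VPS52, VPS53 and VPS54 were all called lower, at -0.66, -0.32 and -0.22. Of the partners, the Rab GTPase YPT6 fell by 0.58, while RIC1 (-0.10) and RGP1 (0.20), which activate Ypt6, did not pass. YPT6 shares 320 bp with VPS63, and how reads in that overlap were assigned is not known. RIC1 was called lower after correction for coding length (-0.43, limma adjusted p 0.000831). RGP1 passed in edgeR's quasi-likelihood test (0.205, adjusted p 0.045).

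Of the phosphatidylinositol 3-kinase genes, VPS38 stood apart from the other 3. Vps34 is the kinase, Vps15 its regulatory subunit, and Vps30 is shared between an endosomal form with Vps38 and an autophagy form with Atg14. VPS38 had 122 and 113 CPM in control and 63.6 and 70.2 CPM in adapted libraries, and fell by 0.81 (SE 0.09; limma adjusted p 2.08e-05). VPS34, VPS15 and VPS30 did not pass, at log2 fold changes of 0.06, -0.04 and -0.07, with intervals inside -0.30 to 0.25. After correction for coding length they were called lower than genes of like length, at -0.25, -0.40 and -0.25. ATG14 had 60.4 ± 0.69 and 65.4 ± 7.08 CPM and did not pass. VPS38 overlaps DCR2 on the opposite strand by 35 bp at its end, and DCR2 rose from 59.3 ± 7.09 to 101 ± 3.17 CPM. FAB1, which makes the next lipid from the product of Vps34, rose by 0.55, and VAC7, which activates Fab1, by 0.38. Neither call held after correction for coding length (0.20, adjusted p 0.0517, and 0.03, adjusted p 0.744).

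**Figure D3:**
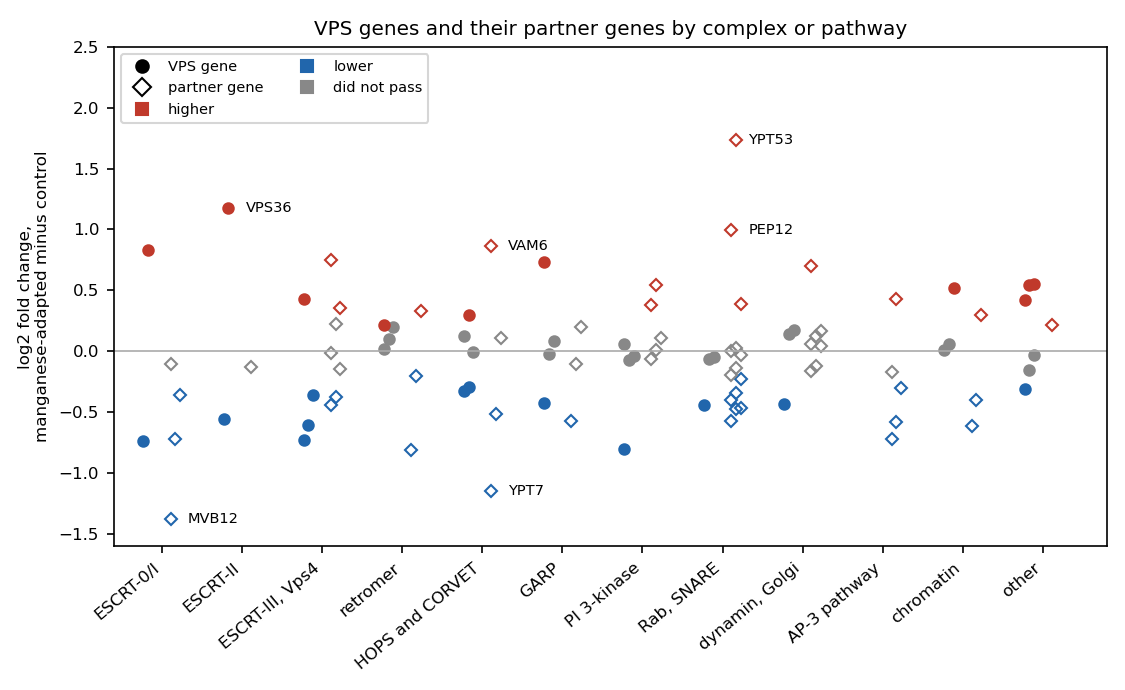
Log2 fold change (y axis, difference of adapted and control means of log2(CPM + 1)) of tested VPS genes (filled circles) and partner genes (open diamonds) by complex or pathway. Colours give the outcome of the limma test; YPT53 is highest at 1.73 and MVB12 lowest at -1.38, and in each of ESCRT-II, ESCRT-III, HOPS and CORVET, and GARP some genes rose while others fell.

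Of the 3 endosomal Rab and fusion genes with VPS names 1 fell and 2 did not pass. Of their 14 partners 3 rose, 6 fell and 5 did not pass, beside 33.6% of all features higher and 34.9% lower. After correction for coding length 3 of these partners were called higher and 2 lower, beside 32.6% and 34.1% of all genes. VPS21, the main endosomal Rab GTPase, had 308 and 283 CPM in control and 278 and 286 CPM in adapted libraries and did not pass. Its 95% confidence interval was -0.26 to 0.13, and it was called higher after correction for coding length (0.25). YPT53, a related Rab that acts beside Vps21, rose from 86.4 ± 10.8 to 288 ± 1.70 CPM (SD, n = 2; log2 fold change 1.73 ± 0.10 SE; limma adjusted p 2.02e-07). Per kb of coding length YPT53 stood at 130 CPM in control and 435 CPM in adapted libraries, and VPS21 at 467 and 445 CPM. VPS9, the exchange factor of Vps21, had 49.96 ± 3.49 and 48.3 ± 5.23 CPM and did not pass. MUK1, the other exchange factor, fell by 0.47. YKT6, a SNARE of several routes to the vacuole, fell by 0.48, but did not pass after correction for coding length (-0.13, limma adjusted p 0.235).

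VPS45, which guides the endosomal SNAREs Pep12 and Tlg2, had 117 and 122 CPM in control and 80.8 and 94.9 CPM in adapted libraries and fell by 0.44 (limma adjusted p 0.00204). PEP12 rose from 344 ± 24.8 to 685 ± 52.1 CPM (log2 fold change 0.99), and PEP7, a partner of Vps45 and Pep12, fell by 0.57. TLG2 had 102 ± 2.27 and 102 ± 5.83 CPM. In the other route to the vacuole, 3 of the 4 subunits of the AP-3 adaptor fell: APL6 by 0.72, APM3 by 0.58 and APL5 by 0.30, beside 34.9% of all features lower. YCK3, a vacuolar casein kinase carried by this route, rose by 0.43, but failed on leaving out manganese-adapted replicate 1 (adjusted p 0.0509). APL5 failed on leaving out manganese-adapted replicate 1 (adjusted p 0.0537) or manganese-adapted replicate 2 (0.053).

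Across the 58 partner genes, of which 57 were tested, 13 rose, 21 fell and 23 did not pass, which is 59.6% past the test beside 68.5% of all features. Their median log2 fold change was -0.11. The number of partners that rose was 7 without manganese-adapted replicate 1.

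Of the remaining VPS genes of trafficking, VPS74, which keeps mannosyltransferases in the Golgi, fell from 157 and 174 CPM to 120 and 124 CPM (log2 fold change -0.44, limma adjusted p 0.00105). VPS1, a dynamin-like GTPase, had 224 ± 15.97 and 248 ± 6.20 CPM, and VPS13, a large lipid transfer protein, 204 ± 9.76 and 230 ± 8.50 CPM. Neither passed (adjusted p 0.164 and 0.0949). KEX2, a Golgi protease that returns from the endosome, rose by 0.70.

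Some genes carry a VPS name and act elsewhere. VPS72 and VPS71 encode subunits of the SWR1 chromatin remodeller, and VPS75 a histone chaperone. VPS72 had 157 and 134 CPM in control and 204 and 213 CPM in adapted libraries and rose by 0.52 (SE 0.09; limma adjusted p 0.000627), and by 0.24 after correction for coding length. VPS71 (41.3 ± 1.41 and 41.7 ± 2.39 CPM) and VPS75 (93.8 ± 7.40 and 97.4 ± 5.99 CPM) overlapped between groups and did not pass. After correction for coding length VPS75 was called higher (0.26, limma adjusted p 0.0274) and VPS71 did not pass (0.18, adjusted p 0.116). Among their partners RTT109, the histone acetyltransferase that works with Vps75, fell by 0.61. HTZ1, the histone variant that SWR1 deposits, fell by 0.40 and SWR1 itself rose by 0.29. HTZ1 and SWR1 no longer passed after correction for coding length (0.11, adjusted p 0.362, and -0.06, adjusted p 0.526). HTZ1 also failed on leaving out manganese-adapted replicate 2 (adjusted p 0.0794), and SWR1 on leaving out manganese-adapted replicate 1 (0.0569) or manganese-adapted replicate 2 (0.0863).

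VPS70, a membrane protein resembling peptidases, had 172 and 149 CPM in control and 252 and 220 CPM in adapted libraries (log2 fold change 0.55 ± 0.10 SE; limma adjusted p 0.000667). VPS64, also named FAR9 and part of the Far complex, had 67.4 and 60.3 CPM and then 97.2 and 89.8 CPM (0.54 ± 0.09 SE; limma adjusted p 0.000426). VPS73 rose by 0.42. Each of these was high in both adapted libraries, and each still passed after correction for coding length, at 0.26, 0.33 and 0.30. VPS62 had 331 and 264 CPM in control and 239 and 237 CPM in adapted libraries and fell by 0.31 (limma adjusted p 0.0255), but failed on leaving out control replicate 1 (0.194), manganese-adapted replicate 1 (0.147) or manganese-adapted replicate 2 (0.158). VPS55 and VPS68, which form an endosomal membrane complex, had 96.6 ± 1.49 and 94.3 ± 3.57 CPM and 287 ± 2.31 and 257 ± 6.15 CPM and did not pass. Both were called higher after correction for coding length, at 0.46 and 0.23.

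The threshold ran through small changes. The 3 genes nearest to it that passed were VPS35, VPS16 and VPS62, and the 3 nearest that did not were VPS5, VPS13 (adjusted p 0.0949) and VPS68 (adjusted p 0.113). Of the 23 calls, 17 held whichever single library was left out.

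VPS61, VPS63 and VPS69 are names of short reading frames that lie across other genes, and few reads were counted for them. VPS69 had 64 and 62 reads in control and 25 and 17 reads in adapted libraries, which is 4.53, 4.66, 1.84 and 1.34 CPM, and fell by 1.12 (SE 0.19; limma adjusted p 0.000428). By general knowledge of the yeast genome, not from the annotation used here, it lies across SRP54, a gene of the signal recognition particle, which fell from 234 ± 3.14 to 147 ± 4.78 CPM. VPS61 (5.19 ± 0.86 and 4.40 ± 1.08 CPM) did not pass and, again by general knowledge, lies across RGP1 (66.6 ± 0.08 and 76.6 ± 1.96 CPM). VPS63 had 5, 7, 4 and 1 reads, was below the filter on low values and was not tested, and shares 320 bp with YPT6. The sources used here do not say how reads in such overlaps were assigned, so the level of each is uncertain.

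Per length, VPS68 and VPS21 had the highest levels among the 40 VPS genes with over 10 CPM, at 516 and 467 CPM per kb of coding length in control and 463 and 445 in adapted libraries. VPS55 followed at 228 and 223 CPM per kb. VPS15 was lowest at 10.2 and 9.98 CPM per kb, with VPS8 next at 17.1 and 18.7. VPS36 moved from rank 38 to rank 27 of these levels and VPS51 from rank 14 to rank 6. VPS4 moved from rank 7 (165 CPM per kb) to rank 4 (223 CPM per kb), and VPS60 from rank 4 (215) to rank 8 (141).

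Coding length moved with the change, among VPS genes as in the whole table. The Spearman correlation of log2 fold change with coding length was 0.38 over 40 VPS genes and 0.40 over 5769 genes, a description across genes that share the same 4 libraries. Of 10 bins of genes by length, the shortest (78 to 402 bp) had a median log2 fold change of -0.58 and the longest (from 2802 bp) 0.30. The VPS genes that rose had a median coding length of 1842 bp. Those that fell had 1179 bp (12 with a length) and those that did not pass 1851 bp (18 with a length). Of the 13 VPS genes shorter than 1000 bp, 5 fell, 6 did not pass, 1 rose and 1 was not tested. Of all features tested, of any length, 34.9% fell and 33.6% rose. The correction used above subtracted the trend of log2 fold change with coding length over all genes. After it, 12 of the 40 VPS genes tested with a length were called higher and 17 lower, beside 32.6% and 34.1% of all genes. Of the 23 calls, 18 were made again in the same direction. VPS69, another of the 23, and VPS61 have no length here and were not in that analysis. What makes change and length move together was not tested.

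**Figure D4:**
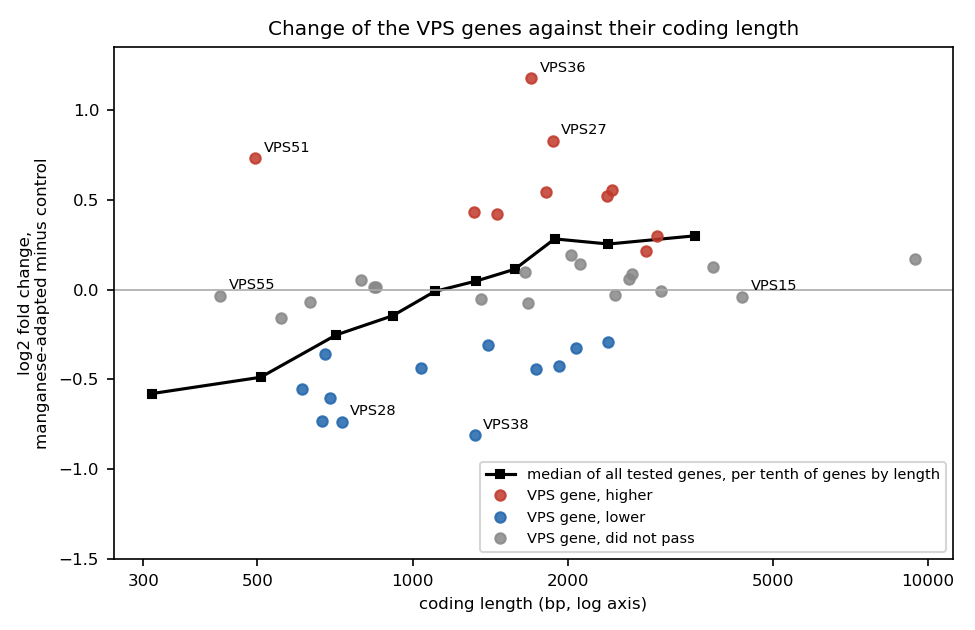
Log2 fold change of VPS genes (y axis, difference of adapted and control means of log2(CPM + 1)) against coding length in bp (x axis, log scale), coloured by the outcome of the limma test. Black squares are medians of all tested genes in 10 bins by length, from -0.58 to 0.30; VPS51, VPS27 and VPS36 lie far above the line and VPS38 far below it.

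By position, 41 of the 44 genes matched the R64 annotation, on 12 chromosomes, with 8 on chromosome IV. Of these VPS52 (IV, 1422763 to 1424688, plus strand), VPS72 (1424820 to 1427207, minus) and VPS60 (1427431 to 1428120, minus) lie side by side with gaps of 131 and 223 bp. Their log2 fold changes were -0.42, 0.52 and -0.60, so neighbours changed in opposite directions. VPS36 lies on XII at 955010 to 956710 (plus), VPS27 on XIV at 636986 to 638854 (plus), VPS28 on XVI at 427927 to 428655 (plus), VPS38 on XII at 846103 to 847422 (plus) and VPS51 on XI at 478338 to 478832 (plus). Each is annotated as 1 coding exon. VPS29 and VPS75 have 2. Of the 41 VPS genes, 0 had another annotated gene of at least 85% identity over 100 bp.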

How the data were processed

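RNA-seq libraries were made from total RNA with a TruSeq RNA kit, per the labels' protocols. Build sacCer3 and the tools HTSeq, edgeR, Bowtie, TopHat2 2.0.13 and cutadapt 1.8.1 are named per the submitters' processing notes. The sources used here do not state their roles, the annotation or how strand was handled, so reads of overlapping genes cannot be told apart. The values deposited by the authors are CPM, although the columns are headed as counts. They match CPM with edgeR's TMM scaling (trimmed mean of M-values) within 3.95e-06 CPM, with library factors of 0.987 to 1.03. All of the values are whole multiples of the value of 1 read within 0.001 reads. Log2 fold changes, p-values and false discovery rates of the authors' own comparison are deposited beside them. Groups come from the labelled adaptation status. Fold changes are limma-trend estimates (R 4.3.3, limma 3.58.1) on log2(CPM + 1), which understates changes of low genes, for the 6296 features that reached 1 CPM in 2 samples, without covariates. edgeR 4.0.16 and DESeq2 1.42.0 on the recovered reads were alternatives, and edgeR's quasi-likelihood test called 2128 features higher and 2186 lower. The coding length trend was a loess curve over all tested genes. The fit was also run on simulated data with fewer and mostly larger changes than here, so that run does not speak for small changes. Coordinates, coding lengths and sequences come from RefSeq R64, to which 6047 features matched by locus tag, and copies were sought with blastn 2.17.0. A floor of 3 reads covers counting error only. Genes of the same complexes under other names are called partner genes. VPS genes past the test with a log2 fold change of at least 0.5 and the 10 largest are given by library, and up to 4 partners per group are named; further genes were chosen after their values were seen. One of the VPS genes enters the counts and is not reported here by name. The VPS genes and lists were chosen with earlier results of these data known.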

Additional observations from a re-analysis of the deposited data

How the results depend on the processing

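The numbers of VPS genes higher (10) and lower (13) stayed within 1.5 times under all 16 alternatives, from 8 to 12 and from 9 to 17. The VPS median of -0.03 was -0.123 after correction for coding length, 0.00258 with the 10 CPM filter and -0.00562 with library size only, and ran from -0.0441 to 0.0394 with single libraries left out, so its sign is not settled. Partners higher (13) ran from 7 to 14 with single libraries left out. After correction for coding length the sign changed for VPS21 (0.255), VPS34 (-0.246), VPS35 (-0.0983), VPS41 (-0.0266), VPS54 (-0.22), VPS55 (0.463), VPS68 (0.229) and VPS8 (-0.224), each past the test in at least 1 of the analyses, and for VPS17 (-0.08), VPS5 (-0.05), VPS1 (-0.11) and VPS13 (-0.14), which passed in neither. Other scalings and pseudocounts changed no VPS call, and the 10 CPM filter left VPS69 untested, with 12 VPS genes lower. VPS13 passed without control replicate 1 (adjusted p 0.0491) and VPS5 without control replicate 2 (0.0285). With the replicate block 9 VPS genes were higher and 13 lower, VPS35 being lost (limma adjusted p 0.0575). Across genes, the deviations of same-numbered samples had a correlation of -0.18. With 2 samples a group this compares a single contrast per group, so it cannot settle whether the numbers mark pairs. A crossed pairing, added after seeing the data, gave 10 VPS genes higher and 13 lower. With 2 samples a group an exact test of a single gene cannot go below 0.333. Among the tested VPS genes named here, VPS61 and VPS69, with 17 to 82 reads a library, are the least precise.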
